A study of Homo sapiens with 12 samples.

Results

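Described here are 10 genes of the epithelial-mesenchymal transition (EMT): the transcription factors ZEB1, ZEB2, SNAI1, SNAI2, TWIST1 and TWIST2, and the effectors VIM, FN1, TAGLN and SPARC. They were taken by gene name from the deposited tables, which list 79444 genes between them, and each had 1 row in both tables. All 10 had a mean level high enough to be tested in each comparison. The cells were BEAS-2B, a human bronchial epithelial line that was immortalised in culture, grown in DMEM with 5% FBS. All 12 libraries came from cells exposed to hexavalent chromium, a lung carcinogen, as 0.25 µM K2Cr2O7 for 20 weeks, and cells without chromium are not analysed here. In the first experiment, 3 libraries from wild-type cells given chromium with the vehicle, 0.05% DMSO, were set against 3 from wild-type cells given chromium with 25 µg/ml kava, a plant extract. In the second, cells given chromium and vehicle were transfected with 100 nM of a non-targeting control siRNA, or of an siRNA pool against the splicing factor SNRPA1, and were harvested after 48 h, with 3 libraries in each group. The labels name 1 cell line and do not say whether the replicates were separate cultures, so p-values measure only the spread between these libraries. In bulk RNA of this kind, fewer cells of a type and less RNA per cell cannot be told apart.

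EMT is the programme by which epithelial cells lose cell-cell junctions and gain a mesenchymal shape, cytoskeleton and matrix. The SNAI and ZEB zinc-finger proteins and the TWIST helix-loop-helix proteins bind E-box sequences and repress junction genes such as CDH1, the gene of E-cadherin. VIM, FN1, TAGLN and SPARC encode products that increase in many cells passing through the programme: an intermediate filament, a matrix glycoprotein, an actin-binding protein and a collagen-binding secreted protein. ZEB1 and ZEB2 also repress the microRNAs of the miR-200 family, which in turn target ZEB1 and ZEB2 mRNA.

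Those microRNAs are shown because they link ZEB1 and ZEB2, which moved in opposite directions with kava. They are printed 5′ to 3′ as in RefSeq on GRCh38.p14, with the seed (bases 2 to 8) in capitals; the first 3 share 1 seed, the next pair another, and miR-205, a further regulator of the ZEB genes, has its own.
hsa-miR-200b-3p: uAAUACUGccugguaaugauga
hsa-miR-200c-3p: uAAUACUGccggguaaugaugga
hsa-miR-429: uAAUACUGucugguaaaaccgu
hsa-miR-200a-3p: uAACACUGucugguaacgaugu
hsa-miR-141-3p: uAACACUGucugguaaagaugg
hsa-miR-205-5p: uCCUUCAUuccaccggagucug
In the longest annotated 3′ UTR of each gene (GENCODE 29, hg38), the match to the first seed, CAGTATT, occurred 6 times in ZEB1, 5 times in ZEB2, 2 times in FN1 and once in SNAI2, and was not found in the UTRs of the other 6 members. Of 19133 genes, 16.0% held at least 1 such match. The match to the second seed, CAGTGTT, which 18.3% of genes hold, occurred 3 times in ZEB1 and 4 times in ZEB2 and in no other member. ATGAAGG, the match to the miR-205 seed, occurred once each in ZEB1 and SPARC, against 11.7% of genes. The first CAGTATT match of each ZEB gene, in capitals with its flanks, began at base 369 of the ZEB1 UTR and at base 392 of the ZEB2 UTR.
ZEB1: tatcttatCAGTATTatcactc
ZEB2: ccatacatCAGTATTtttatta
A match is a description of the letters and not a tested site. Mature microRNAs were not measured in these polyadenylated libraries. MIR200CHG, the host gene of miR-200c and miR-141, was listed at 0 in all 12 libraries, and MIR205HG at 0 in the 6 libraries of the kava experiment.

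RefSeq promoter windows of 300 bases were available for 6 members; SNAI1, SNAI2, TWIST1 and TAGLN had no entry. The windows were searched on both strands for the E-box CACCTG, the element that SNAI and ZEB proteins bind, which 20.6% of 35116 promoters hold. ZEB1 has 7 windows, and the one at chr10:31318966-31319265 on the plus strand held 3 matches; a second ZEB1 window held 1, and the windows of ZEB2, TWIST2, VIM, FN1 and SPARC held none. The ZEB1 window is shown with the E-boxes in capitals, beside the single window of ZEB2 at chr2:144520070-144520369 on the minus strand.
ZEB1: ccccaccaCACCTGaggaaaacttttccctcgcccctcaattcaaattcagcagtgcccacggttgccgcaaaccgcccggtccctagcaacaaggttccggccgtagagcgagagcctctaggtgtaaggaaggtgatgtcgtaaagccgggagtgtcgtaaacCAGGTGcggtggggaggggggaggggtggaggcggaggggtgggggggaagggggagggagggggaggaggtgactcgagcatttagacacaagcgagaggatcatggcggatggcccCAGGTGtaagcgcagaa
ZEB2: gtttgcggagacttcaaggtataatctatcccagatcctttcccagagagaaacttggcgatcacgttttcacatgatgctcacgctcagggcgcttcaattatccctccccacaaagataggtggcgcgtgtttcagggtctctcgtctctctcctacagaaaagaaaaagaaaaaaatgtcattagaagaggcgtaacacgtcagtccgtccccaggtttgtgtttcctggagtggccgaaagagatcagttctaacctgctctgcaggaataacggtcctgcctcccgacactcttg
The SPARC window, chr5:151686866-151687165 on the minus strand, is shown because SPARC was the 1 member that rose in both experiments. It held 3 matches to GGAGGAGG, a pair of them overlapping, and this motif, chosen after the sequence was seen, occurs in 10.9% of promoters. The ZEB1 window shown above and the ZEB1 window at chr10:31319518-31319817 held 1 match each, and the other windows of the members held none. Capitals mark the matches in the SPARC window.
SPARC: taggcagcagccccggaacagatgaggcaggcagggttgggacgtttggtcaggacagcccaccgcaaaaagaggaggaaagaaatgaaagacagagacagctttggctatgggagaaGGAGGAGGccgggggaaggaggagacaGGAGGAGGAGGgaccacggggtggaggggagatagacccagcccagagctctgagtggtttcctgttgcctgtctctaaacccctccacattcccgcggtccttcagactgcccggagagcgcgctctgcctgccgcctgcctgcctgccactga

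The cells showed a mixed set of markers. Simple-epithelial keratins were abundant, with vehicle means of 583 ± 14.6 TPM for KRT8 and 426 ± 8.52 TPM for KRT18 (SD, n = 3). TPM is a transcript level scaled for transcript length and summing to 1000000 in each library. CDH1 was between 0.018 and 0.057 TPM with vehicle and between 0.067 and 0.48 TPM with kava, too low to be tested. EPCAM, another epithelial adhesion gene, stood at 1.60 to 2.54 TPM with vehicle and 2.70 to 2.91 TPM with kava. For both genes every kava library lay above every vehicle library. The difference in EPCAM was not significant after adjustment (limma adjusted p = 0.067). All 8 markers of differentiated airway epithelium were under 1 TPM, and of 6 basal markers only KRT17 passed 1 TPM in vehicle cells. Of 9 fibroblast markers, 7 averaged under 1 TPM in vehicle cells, among them COL3A1, at 0.072 TPM or lower. The fibroblast markers THY1 and PDGFRB stood at 388 ± 14.3 TPM and at 15.0 to 16.6 TPM in vehicle cells. In the siRNA libraries CDH1 was between 0.17 and 0.75 CPM (reads per 1000000 counted, after TMM scaling). Of the markers of the labelled cell type, KRT8 and KRT18 were thus abundant, KRT19 differed between groups (23.5 ± 1.18 TPM with vehicle and 0.705 ± 0.031 TPM with kava), and E-cadherin mRNA was near 0 in every library.

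Per transcript length, the effectors lay far above the factors. In vehicle cells the order was VIM (1785 ± 38.9 TPM), SPARC (1068 ± 48.9), TAGLN (269.6 ± 3.62), FN1 (160.4 ± 1.18), ZEB2 (31.0 ± 0.597), TWIST2 (23.2 ± 2.46), TWIST1 (11.2 ± 0.757), SNAI2 (10.5 ± 0.229), ZEB1 (8.72 ± 0.427) and SNAI1 (2.10 ± 0.124; SD, n = 3 for each). Only TWIST1 and SNAI2 overlapped with their neighbour in that order. In kava cells FN1 and TAGLN overlapped, and SNAI2, TWIST1 and ZEB1 formed an overlapping run. By the deposited FPKM of the control siRNA cells (reads scaled for transcript length and library size), VIM, SPARC, FN1 and TAGLN again led, and TWIST2 at 13.2 ± 1.64 FPKM was the highest factor, with ZEB2 down at 1.39 ± 0.477 FPKM. The transcript length that the FPKM values imply for ZEB2 was 28883 bases. Its longest coding transcript in GENCODE 29 has 9583 bases and all its exons merged have 25058. For TAGLN the implied length was 7217 bases, against 2166 and 3917, and for FN1 18970, against 8905 and 17315. For VIM it was 5702 bases, against 2135 and 5158. In every member the implied length exceeded the merged exons, also in SNAI1, which has 1 annotated transcript (1882 against 1686 bases). The ranks of ZEB2, TAGLN and FN1 among the members thus depend on the length used.

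With kava, EMT factors and effectors changed in both directions. Of the 10 members, 6 were called at a limma adjusted p under 0.05: ZEB1, SNAI2 and SPARC rose and ZEB2, TWIST2 and TAGLN fell. Over all 13866 genes tested, 31.9% were called, 16.3% higher and 15.6% lower. The groups did not overlap for 9 of the 10 members, against 47.2% of all genes. The median log2 fold change of the members was 0.11, and that of all genes was -0.014.

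**Figure D1:**
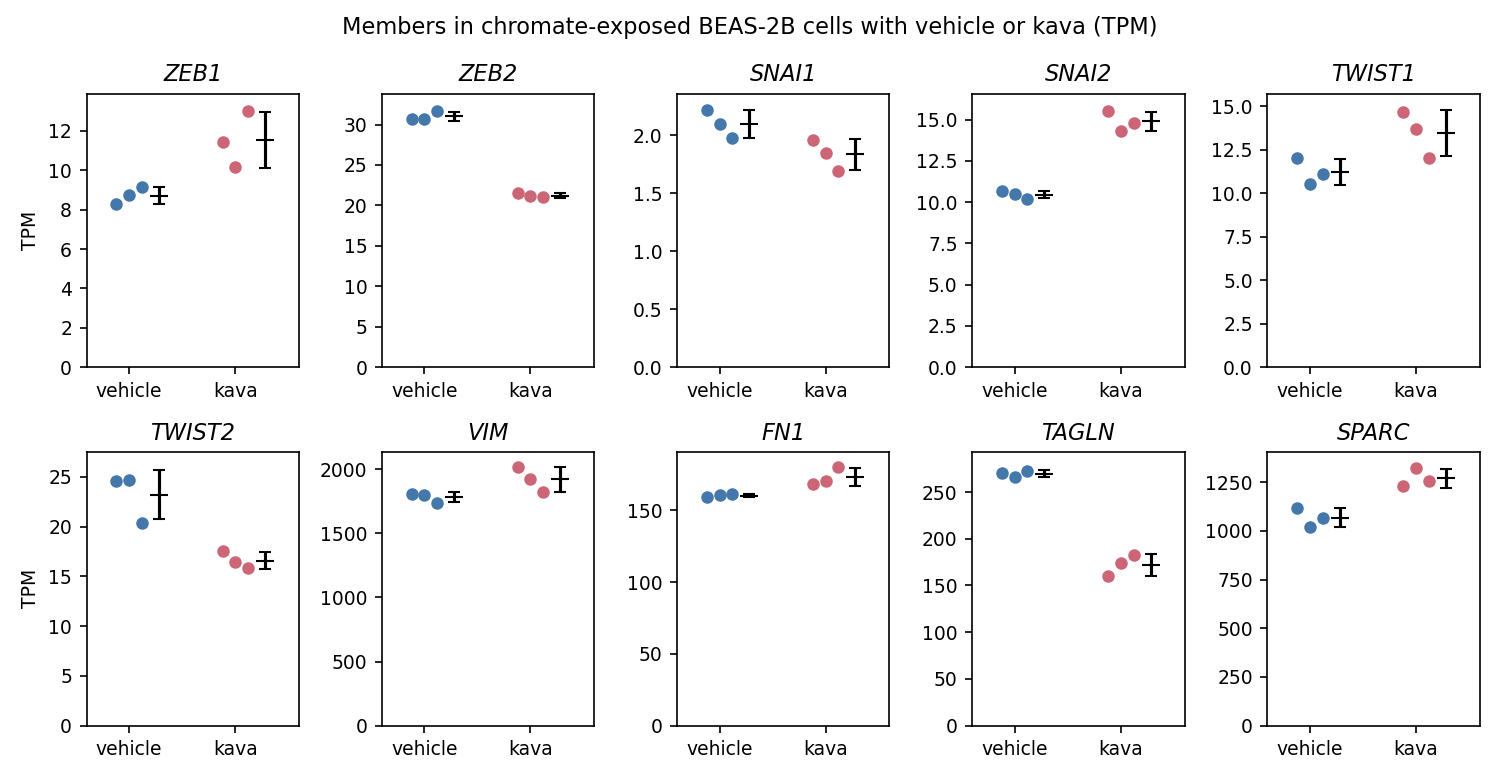
Level of each member in TPM (y axis, from 0) in the 3 vehicle (blue) and 3 kava (red) libraries; bars beside the points give the mean ± SD. ZEB2, TWIST2 and TAGLN lie lower in every kava library and ZEB1, SNAI2 and SPARC higher, whereas the TWIST1 groups overlap.

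The ZEB pair moved in opposite directions. ZEB1 (ENSG00000148516, chromosome 10 from 31318495 to 31529814, hg38, plus strand) stood at 8.28, 8.74 and 9.14 TPM in vehicle replicates 1, 2 and 3 and at 11.4, 10.2 and 13.0 TPM in kava replicates 1, 2 and 3. Every kava library was above every vehicle library, with replicate 3 the highest. ZEB1 rose 1.32-fold (log2 fold change on the log2(TPM + 1) scale 0.36 ± 0.089 SE, limma adjusted p = 0.019). This call was lost without vehicle replicate 1 (limma adjusted p = 0.069), without vehicle replicate 2 (0.054) or with no filter on low genes (0.058). ZEB1-AS1, an antisense gene overlapping ZEB1 and at most 38.0% of its level, was not called (log2 fold change 0.14, limma adjusted p = 0.36); whether the counting used strand is not given in the sources used here.

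ZEB2 (ENSG00000169554, chromosome 2 from 144364364 to 144521057, minus strand) stood at 30.7, 30.6 and 31.7 TPM with vehicle and at 21.5, 21.1 and 21.0 TPM with kava. The libraries of each group lay close together and the groups were far apart. ZEB2 fell 1.46-fold (log2 fold change -0.53 ± 0.042, limma adjusted p = 0.00013). The ratio of ZEB1 to ZEB2 within a library was 0.281 ± 0.0099 with vehicle and 0.544 ± 0.070 with kava (SD, n = 3), and the 2 groups did not overlap. The exact two-sided permutation p was 0.1, the smallest that 3 against 3 libraries allow.

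Of the SNAI repressors, SNAI2 rose and SNAI1 was not called. SNAI2 (ENSG00000019549, chromosome 8 from 48917598 to 48921440, minus strand), also known as Slug, stood at 10.7, 10.5 and 10.2 TPM with vehicle and at 15.5, 14.3 and 14.8 TPM with kava. All kava libraries exceeded all vehicle libraries, 1.42-fold on average (log2 fold change 0.47 ± 0.054, limma adjusted p = 0.00070). SNAI1 (ENSG00000124216, chromosome 20 from 49982980 to 49988886, plus strand), also known as Snail, was the least abundant member, at 2.22, 2.09 and 1.97 TPM with vehicle and 1.96, 1.85 and 1.70 TPM with kava. Its log2 fold change of -0.13 ± 0.093 was not called (limma adjusted p = 0.34), although the groups just missed overlapping. The ratio of SNAI1 to SNAI2 was 0.201 ± 0.0075 with vehicle and 0.123 ± 0.0077 with kava (exact two-sided permutation p = 0.1, n = 3).

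The TWIST paralogs also parted. TWIST2 (ENSG00000233608, chromosome 2 from 238848032 to 238910534, plus strand) stood at 24.6, 24.7 and 20.4 TPM with vehicle and at 17.5, 16.4 and 15.9 TPM with kava. Vehicle replicate 3 was nearest the kava libraries, but the groups did not overlap. TWIST2 fell 1.40-fold (log2 fold change -0.46 ± 0.082, limma adjusted p = 0.0052). TWIST1 (ENSG00000122691, chromosome 7 from 19020991 to 19117118, minus strand) stood at 12.1, 10.6 and 11.1 TPM with vehicle and at 14.6, 13.7 and 12.0 TPM with kava. The third kava library lay inside the vehicle range. The log2 fold change of 0.24 ± 0.083 was not called (limma adjusted p = 0.063), and it passed the threshold without kava replicate 3 (0.021). The ratio of TWIST1 to TWIST2 was 0.487 ± 0.058 with vehicle and 0.810 ± 0.044 with kava (exact two-sided permutation p = 0.1, n = 3). In all 3 paralog pairs the ratio of the paralogs differed between vehicle and kava without overlap. The share of other gene pairs with such a difference was not computed.

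Among the effectors, TAGLN fell and SPARC rose. TAGLN (ENSG00000149591, chromosome 11 from 117199370 to 117207464, plus strand) encodes transgelin, an actin-binding protein of smooth muscle and mesenchymal cells. It stood at 270.0, 266 and 273 TPM with vehicle and at 159.7, 174 and 182 TPM with kava, with a wide gap between the groups. The 1.57-fold fall was the largest called change among the members (log2 fold change -0.65 ± 0.051, limma adjusted p = 0.00012). PCSK7, on the opposite strand over the end of TAGLN, had at most 27.9% of its TPM and was not called (log2 fold change 0.19, limma adjusted p = 0.34). Of 6 smooth muscle markers 3 were tested; ACTA2 and CNN1 fell as well, and SMTN, at 47.0 to 51.3 TPM with vehicle and 51.9 to 54.0 TPM with kava, was not called. SMTN made up most of the summed level of the 6, which was 56.6 to 62.2 TPM with vehicle and 55.6 to 58.6 TPM with kava. The defining markers MYH11 and DES were at 0.157 TPM or lower in every library.

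SPARC (ENSG00000113140, chromosome 5 from 151661096 to 151686975, minus strand), a secreted protein that binds collagen, stood at 1116, 1019 and 1069 TPM with vehicle and at 1229, 1324 and 1258 TPM with kava. All kava libraries were above all vehicle libraries, 1.19-fold on average (log2 fold change 0.25 ± 0.046, limma adjusted p = 0.0058). VIM (ENSG00000026025, chromosome 10 from 17228241 to 17237593, plus strand), the intermediate filament vimentin, stood at 1811, 1803 and 1740.0 TPM with vehicle and at 2018, 1924 and 1821 TPM with kava. Its groups nearly touched, and the log2 fold change of 0.11 ± 0.044 was not called (limma adjusted p = 0.11). VIM passed the threshold without kava replicate 3 (limma adjusted p = 0.026) and after quantile normalisation (0.027). FN1 (ENSG00000115414, chromosome 2 from 215360440 to 215436073, minus strand), the matrix glycoprotein fibronectin, stood at 159, 161 and 161 TPM with vehicle and at 168, 171 and 181 TPM with kava. The groups did not overlap, yet the log2 fold change of 0.11 ± 0.038 was not called (limma adjusted p = 0.061); with TMM rescaling of the TPM it passed (0.048).

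Other genes of the pathway moved both ways with kava, as did all genes tested, of which 16.3% were called higher and 15.6% lower. Of 15 tested EMT transcription factors outside the members, 6 rose and 5 fell, with a median log2 fold change of -0.024. On the log2(TPM + 1) scale the largest rise was that of ID2, from 5.77 ± 0.726 to 14.7 ± 0.575 TPM (log2 fold change 1.22 ± 0.087). ID1 came next, from 65.9 ± 4.16 to 130 ± 13.7 TPM (0.97 ± 0.081). ID proteins pair with helix-loop-helix factors and lack a DNA-binding region, so they are inhibitors rather than regulators of the SNAI or ZEB kind. TCF4, an E protein, rose from 1.41 ± 0.164 to 3.31 ± 0.478 TPM (log2 fold change 0.84 ± 0.12). As a ratio of mean TPM, the rise of TCF4 (2.35) exceeded that of ID1 (1.98). SOX9 rose by a log2 fold change of 0.82 ± 0.089. Those that fell included TCF3, FOXC2, PRRX2 and RUNX2, named after their values were seen.

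Genes on the epithelial side did not move as a block. Only 5 of 17 factors that keep the epithelial state were expressed enough to test; ELF3, an epithelial ETS factor, fell from 49.1 ± 3.11 to 29.2 ± 1.34 TPM (limma adjusted p = 0.00014), GRHL1 fell (0.018), and none rose. GRHL2 was listed at 0 in 5 of the 6 libraries and ESRP1, an epithelial splicing regulator, was at 0.030 TPM or lower. Of 17 tested epithelial targets of the EMT factors, 4 rose and 2 fell, against 31.9% of all genes called in either direction. The claudin CLDN1 rose from 26.4 ± 1.32 to 42.5 ± 0.529 TPM, and SPINT1, an inhibitor of membrane proteases, by a log2 fold change of 0.88 ± 0.18. PATJ, a tight-junction scaffold, also rose (limma adjusted p = 0.030), a call held in 6 of 12 other settings. AP1M2, an epithelial adaptor subunit, fell by a log2 fold change of -1.67 ± 0.13.

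Changes among partners of the factors were small in size. Their calls stand against 31.9% of all genes called, 16.3% higher and 15.6% lower. Of 16 corepressors and chromatin partners of SNAI and ZEB proteins, 2 rose and 6 fell, with a median log2 fold change of -0.082. RCOR1, a scaffold of the LSD1 complex, fell (-0.34 ± 0.055), as did the deacetylase HDAC2 (-0.26 ± 0.041) and the methyltransferase PRMT5 (-0.25 ± 0.058), and WTIP rose (0.25 ± 0.060). Among 20 tested enzymes that set SNAI, TWIST and ZEB protein stability, 3 rose and 1 fell. FBXO45, part of a ubiquitin ligase for EMT factors, rose by 0.47 ± 0.047 on the log2 scale, PSMD14 by 0.21 ± 0.041 and CSNK1A1 by 0.20 ± 0.034, and the kinase PRKD1 fell (-0.44 ± 0.11, limma adjusted p = 0.020).

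Among genes around TAGLN more fell than rose, and among those around FN1 more rose than fell. Of 22 tested actin-binding and contractile genes, 9 fell and 2 rose, against 15.6% of all genes lower and 16.3% higher. The median log2 fold change of the list was -0.084. CNN1, calponin, fell from 6.30 ± 0.519 to 1.89 ± 0.42 TPM (limma adjusted p = 0.00023), MYL9, a myosin light chain, from 418 ± 17.2 to 291 ± 20.0 TPM, and ACTA2, smooth muscle actin, from 3.22 ± 0.393 to 2.03 ± 0.281 TPM. The 2 that rose were the cytoplasmic actins ACTG1, from 2527 ± 71.6 TPM by a log2 fold change of 0.56 ± 0.053, and ACTB (0.21), the latter named after its value was seen.

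Of 16 tested fibronectin receptors and partners, 7 rose and 3 fell. For this and the next lists, the shares over all genes were 16.3% higher and 15.6% lower. TGM2, a transglutaminase that crosslinks fibronectin, rose from 3.83 ± 0.298 to 11.4 ± 0.147 TPM, the matrix protein THBS1 from 215 ± 6.43 to 365 ± 14.3 TPM and the heparan sulfate receptor SDC4 by a log2 fold change of 0.76 ± 0.038. ITGA4, an integrin subunit that binds fibronectin, fell from 16.8 ± 0.78 to 6.40 ± 0.662 TPM. All 3 tested relatives of SPARC were called: SPOCK1 rose (0.94 ± 0.10), FST rose (0.70 ± 0.14) and FSTL1 fell (-0.33 ± 0.031). Of 10 tested intermediate filament genes and vimentin partners, 6 rose and 4 fell; PLEC, the linker plectin, rose from 72.4 ± 3.27 to 104 ± 1.11 TPM, KRT7 rose, and KRT17 and KRT19 fell. Of 18 tested other mesenchymal markers, 9 rose and 3 fell, among them rises of INHBA (1.70 ± 0.085) and COL1A2 (3.12 ± 0.090) and falls of COL5A2 (-0.76 ± 0.039) and WNT5A (-0.71 ± 0.052). INHBA and COL1A2 averaged below 5 TPM. Over 12 alternatives their log2 fold changes ranged from 1.64 to 2.54 for INHBA and from 2.93 to 5.46 for COL1A2. Markers of cell types moved beside these genes. Of 5 tested simple-epithelial markers, KRT7 rose and KRT8, KRT18 and KRT19 fell (median log2 fold change -0.11), while the summed level of the 6, in which the rise of KRT7 was larger than those falls, was 1197 to 1244 TPM with vehicle and 1280 to 1339 TPM with kava. The 6 basal markers summed to 54.8 to 62.1 TPM with vehicle and 35.6 to 38.7 TPM with kava, nearly all of it KRT17. Of 3 tested fibroblast markers, COL1A2 rose and the others were not called. Summed fibroblast markers, mostly THY1, which was not called, stood at 389 to 419 and 416 to 444 TPM, with DCN listed at 0 in every vehicle library. Summed endothelial markers stood at 1.39 to 1.59 and 0.40 to 0.48 TPM. The part of these markers in the changes was not tested. Among the list genes named with kava, the calls of GRHL1, PATJ, WTIP, PRMT5, PRKD1 and ACTA2 were each lost in 1 to 6 alternatives, most often with 1 library left out or no filter on low genes.

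**Figure D2:**
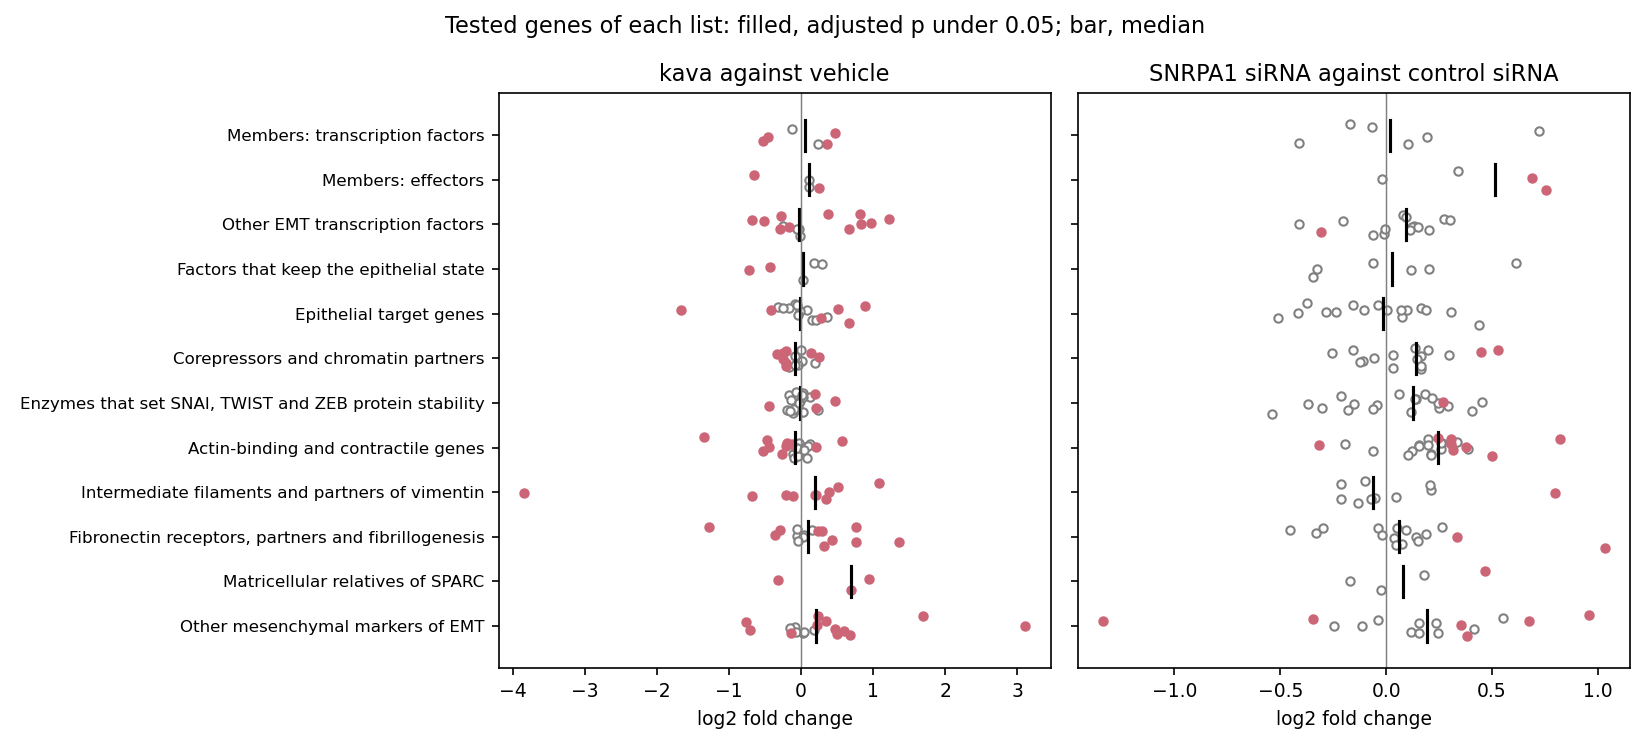
Log2 fold change (x axis) of every tested gene in each list (rows) for kava, left, and SNRPA1 siRNA, right; filled points have an adjusted p under 0.05 and the bar is the list's median. The actin-binding list lies mostly below 0 with kava (median -0.084) and mostly above 0 after SNRPA1 siRNA (median 0.24).

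The knockdown experiment held 1 library that stood apart. In control siRNA replicate 1, 13.9% of genes differed at least 1.5-fold from the mean of the other 2 control libraries, against 1.41% to 3.17% in the other 11 libraries of the series. Of the members, ZEB2, ZEB1 and TAGLN passed that limit. In that library ZEB2 lay at -0.86, ZEB1 at -0.80, FN1 at -0.54 and TAGLN at 0.60 on the log2 scale from the mean of the other 2 controls. Only 2.21% of genes were as far off as ZEB2. Tests of the members and counts of calls are therefore given with and without it. Values of other named genes are those with all libraries unless a setting is named.

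**Figure D3:**
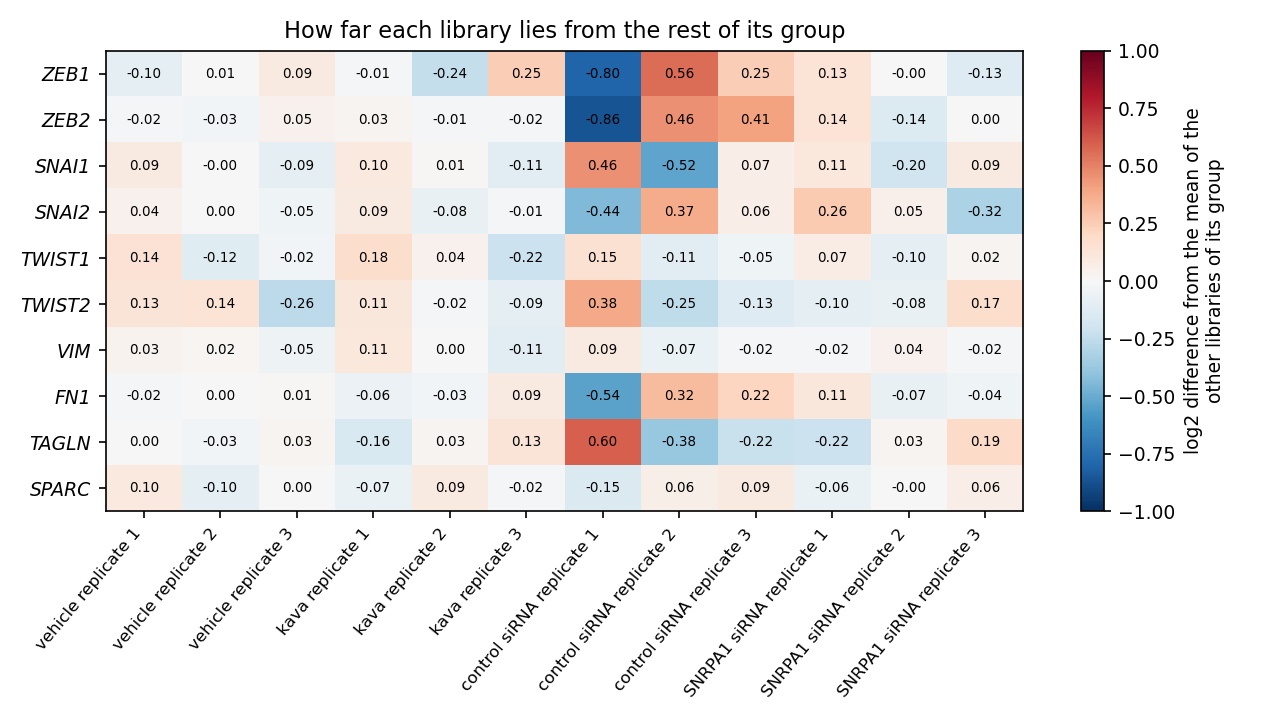
Log2 difference of each member (rows) in each library (columns) from the mean of the other libraries of its group, coloured from blue (lower) to red (higher). The column of control siRNA replicate 1 holds the strongest values, from -0.86 for ZEB2 to 0.60 for TAGLN.

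After SNRPA1 siRNA the effectors TAGLN and SPARC rose, and no transcription factor among the members was called. These 2 of 10 members compare with 12.2% of all 13772 genes tested, 4.89% higher and 7.29% lower, by the edgeR quasi-likelihood test. Without control siRNA replicate 1, 4 of 10 members were called, all higher (TAGLN, SPARC, SNAI1 and FN1), against 33.1% of all genes, 16.2% higher and 16.9% lower. The groups did not overlap for 6 of the 10, against 38.7% of genes. SNRPA1 itself fell from 62.1 ± 4.68 to 21.98 ± 1.499 CPM (log2 fold change -1.499 ± 0.098, edgeR adjusted p = 0.0049). The whole comparison depends on single libraries: without control siRNA replicate 3, 15 genes were called, and without any 1 of the SNRPA1 siRNA libraries none was (2889 to 3267 genes had an unadjusted edgeR p under 0.05). Neither TAGLN nor SPARC was called in any of those fits (edgeR adjusted p 0.11 to 0.14 for TAGLN and 0.052 to 0.077 for SPARC).

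**Figure D4:**
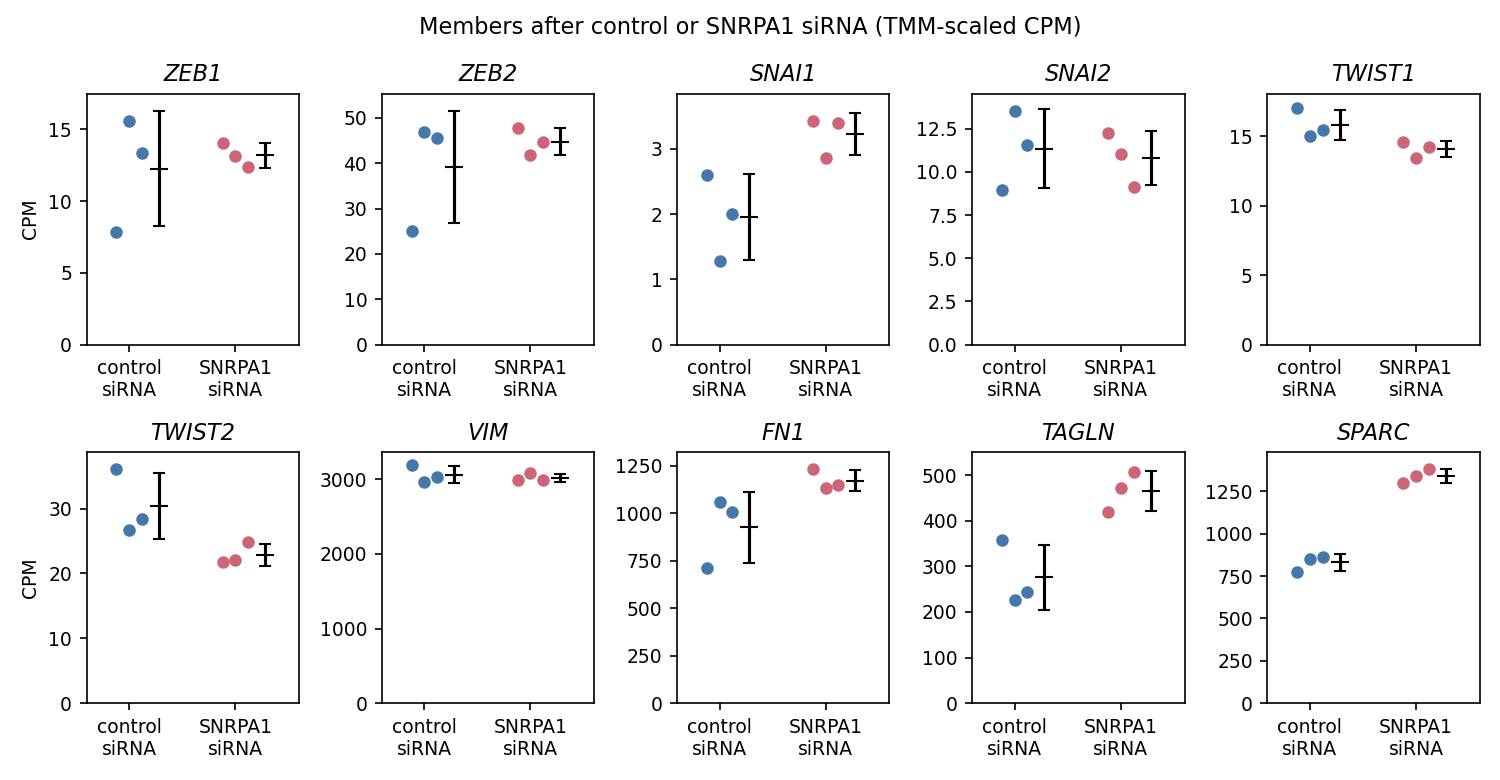
Level of each member in TMM-scaled CPM (y axis, from 0) in the 3 control siRNA (blue) and 3 SNRPA1 siRNA (red) libraries, with mean ± SD beside the points. SPARC and TAGLN lie higher in every SNRPA1 siRNA library, and control siRNA replicate 1, the leftmost blue point, is the lowest for ZEB1, ZEB2 and FN1 and the highest control for TAGLN.

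SPARC stood at 774, 851 and 865 CPM in control siRNA replicates 1, 2 and 3 and at 1301, 1339 and 1381 CPM in SNRPA1 siRNA replicates 1, 2 and 3. Every SNRPA1 siRNA library was far above every control library. SPARC rose 1.61-fold (log2 fold change 0.69 ± 0.067, edgeR adjusted p = 0.0070), and without control siRNA replicate 1 the log2 fold change was 0.64 ± 0.042 (edgeR adjusted p = 0.00044). TAGLN stood at 357, 227 and 244 CPM with control siRNA and at 420.2, 471 and 507 CPM with SNRPA1 siRNA. The first control library was the closest to the knockdown libraries. TAGLN rose 1.69-fold (0.76 ± 0.18, edgeR adjusted p = 0.037). Without control siRNA replicate 1 its log2 fold change was 0.99 ± 0.082 (edgeR adjusted p = 0.00065), and without replicate 2 of that group the call was lost (0.63 ± 0.18, edgeR adjusted p = 0.070). The call was also lost with no filter on low genes (edgeR adjusted p = 0.069).

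FN1 stood at 713, 1059.7 and 1009.6 CPM with control siRNA and at 1234, 1134 and 1150.1 CPM with SNRPA1 siRNA. The groups did not overlap, but the first control library stretched the spread. FN1 was not called with all libraries (log2 fold change 0.34 ± 0.14, edgeR adjusted p = 0.16) and was called without control siRNA replicate 1 at a smaller size (0.18 ± 0.050, edgeR adjusted p = 0.028). VIM stood at 3194, 2968 and 3030.0 CPM with control siRNA and at 2990.4, 3080.4 and 2990.3 CPM with SNRPA1 siRNA, with overlapping groups. Its log2 fold change was -0.021 ± 0.052 (edgeR adjusted p = 0.82), and 0.0098 ± 0.032 without control siRNA replicate 1 (edgeR adjusted p = 0.84).

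The factors gave no call with all libraries. SNAI1 stood at 2.59, 1.28 and 2.00 CPM with control siRNA and at 3.43, 2.85 and 3.39 CPM with SNRPA1 siRNA, from 87 to 221 counted reads a library. All knockdown libraries were above all controls, with a log2 fold change of 0.72 ± 0.28 that was not called (edgeR adjusted p = 0.13). Without control siRNA replicate 1 it was called (0.97 ± 0.26, edgeR adjusted p = 0.026). SNAI2 stood at 8.96, 13.5 and 11.6 CPM with control siRNA and at 12.3, 11.0 and 9.13 CPM with SNRPA1 siRNA. The groups overlapped, and the log2 fold change of -0.068 ± 0.18 was not called (edgeR adjusted p = 0.84; -0.21 ± 0.15 without control siRNA replicate 1, edgeR adjusted p = 0.31).

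TWIST2 stood at 36.1, 26.8 and 28.4 CPM with control siRNA and at 21.8, 22.0 and 24.8 CPM with SNRPA1 siRNA. All knockdown libraries were below all controls, with a log2 fold change of -0.41 ± 0.14 that was not called (edgeR adjusted p = 0.094). It passed the threshold with DESeq2 (adjusted p = 0.046) and with limma on FPKM (adjusted p = 0.037), and was not called without control siRNA replicate 1 (-0.27 ± 0.092, edgeR adjusted p = 0.056). TWIST1 stood at 17.0, 15.0 and 15.4 CPM with control siRNA and at 14.6, 13.4 and 14.2 CPM with SNRPA1 siRNA. The groups were close without overlapping, and the log2 fold change was -0.17 ± 0.10 (edgeR adjusted p = 0.31), and -0.11 ± 0.094 without control siRNA replicate 1 (edgeR adjusted p = 0.39).

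ZEB1 stood at 7.85, 15.6 and 13.4 CPM with control siRNA and at 14.1, 13.1 and 12.4 CPM with SNRPA1 siRNA. ZEB2 stood at 25.0, 46.8 and 45.6 CPM and at 47.7, 41.8 and 44.7 CPM in the same order. In both genes the first control library was far below the other 5 libraries, which lay together. The log2 fold changes of 0.10 ± 0.24 for ZEB1 and 0.19 ± 0.23 for ZEB2 were not called (edgeR adjusted p = 0.80 and 0.61), and turned to -0.13 ± 0.11 and -0.047 ± 0.071 without control siRNA replicate 1 (edgeR adjusted p = 0.40 and 0.64). The ratio of ZEB1 to ZEB2 in CPM was 0.314 ± 0.020 with control and 0.295 ± 0.019 with SNRPA1 siRNA (exact two-sided permutation p = 0.5, n = 3). Control siRNA replicate 1, where both genes were low, had a ratio of 0.315, between those of the other controls. The ratio of TWIST1 to TWIST2 was 0.525 ± 0.047 with control and 0.617 ± 0.048 with SNRPA1 siRNA, without overlap (exact two-sided permutation p = 0.1). That of SNAI1 to SNAI2, which was lower with kava, was 0.186 ± 0.098 with control and 0.303 ± 0.060 with SNRPA1 siRNA, with overlap (exact two-sided permutation p = 0.3).

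**Figure D5:**
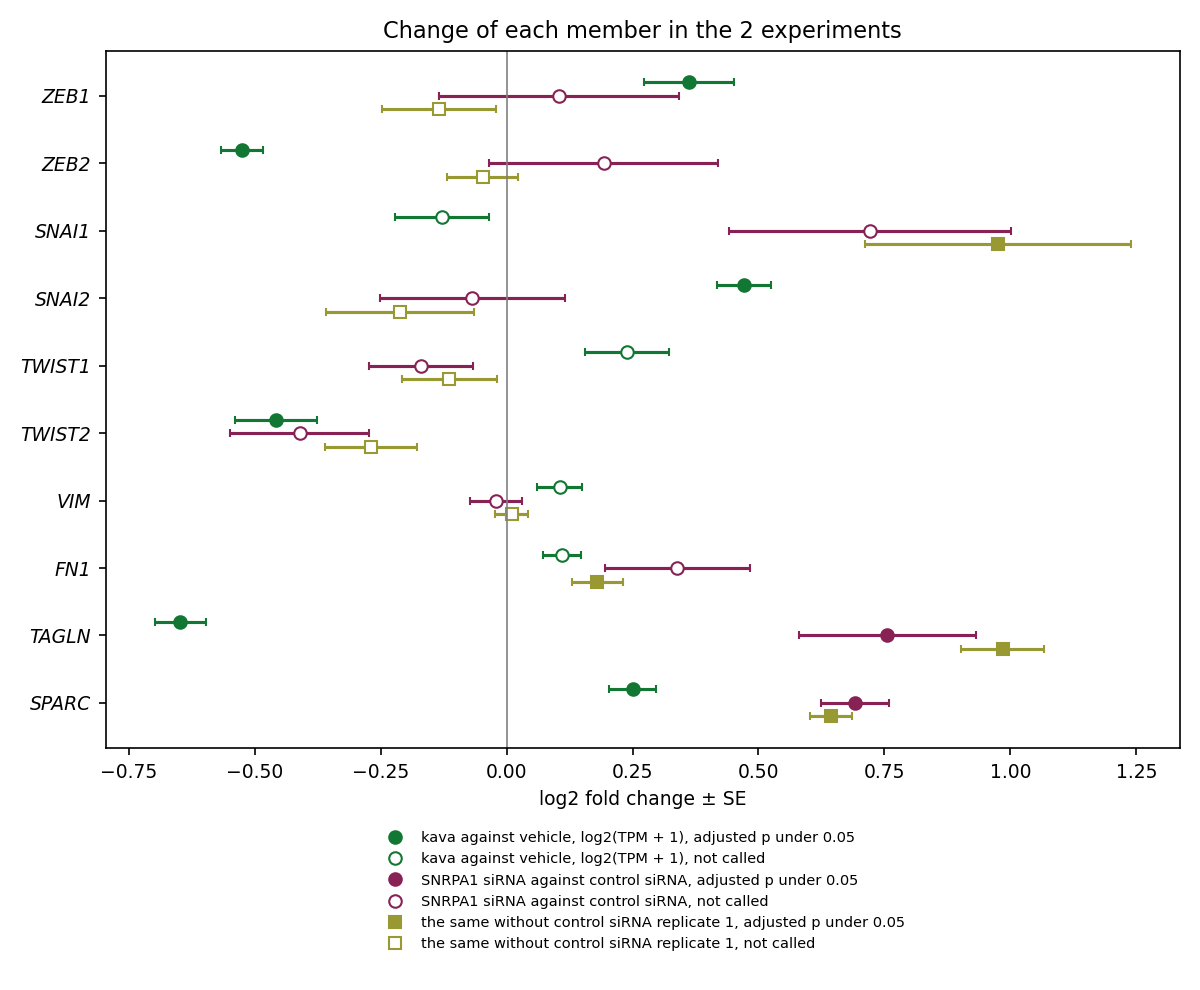
Log2 fold change ± SE (x axis) of each member with kava (green, TPM), with SNRPA1 siRNA (purple, counts) and with SNRPA1 siRNA without control siRNA replicate 1 (olive squares); filled symbols have an adjusted p under 0.05. SPARC lies above 0 in all 3 sets, and TAGLN lies at -0.65 with kava and at 0.76 and 0.99 after SNRPA1 siRNA.

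TAGLN thus fell with kava and rose after SNRPA1 siRNA, and SPARC rose in both. SNRPA1 mRNA also fell with kava, from 151 ± 3.17 to 127 ± 2.99 TPM, by 0.24 ± 0.036 on the log2 scale (limma adjusted p = 0.0023). The experiments share no library and their tables were normalised apart, so the difference between the changes was not tested. The genes nearest to TAGLN over the 6 kava-experiment libraries, by Euclidean distance of centred log2(TPM + 1), were PSTPIP2 (0.066), KLHL23 (0.082) and SLC30A3 (0.091). PSTPIP2 stood at 3.59 to 3.68 TPM with vehicle and 1.85 to 2.10 TPM with kava. SLC30A3 stood at 2.53 to 2.79 and 1.12 to 1.34 TPM. This scale understates the changes of such low genes. Over the 6 siRNA libraries the nearest genes, by centred log2(CPM + 1), were KRT17 (0.109), UBOX5 (0.249) and JMJD6 (0.255).

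Around TAGLN and SPARC, further genes changed after SNRPA1 siRNA. Of 23 tested actin-binding and contractile genes, 7 rose and 1 fell (15 and 2 without control siRNA replicate 1), with a median log2 fold change of 0.24 against -0.0032 for all genes. Over all genes tested, 4.89% were called higher and 7.29% lower (16.2% and 16.9% without control siRNA replicate 1). CNN1 rose from 4.35 ± 0.198 to 7.69 ± 0.556 CPM (edgeR adjusted p = 0.017), CNN3, a second calponin, from 308 ± 46.5 to 436 ± 45.0 CPM (edgeR adjusted p = 0.0499) and MRTFA, a coactivator of serum response factor, from 54.3 ± 4.42 to 70.5 ± 2.29 CPM. FLNA, the actin crosslinker filamin, fell from 3342 ± 36.2 CPM (log2 fold change -0.32 ± 0.051). CNN1, TPM1, TPM4 and ACTN1, the last 3 named after their values were seen, fell with kava and rose after SNRPA1 siRNA. Of the list, 9 genes were called lower with kava and 7 higher after SNRPA1 siRNA. ACTA2, which fell with kava, overlapped between control siRNA (10.2 to 12.8 CPM) and SNRPA1 siRNA (12.3 to 12.9 CPM). The share of all genes with such opposite changes was not computed. The summed level of the 6 smooth muscle markers was 178 to 215 CPM with control and 166 to 167 CPM with SNRPA1 siRNA, and DES was at 0.066 CPM or lower. CNN1 and ACTA2 made up only a small part of that sum. Of 4 tested smooth muscle markers, 1 was called higher and 0 lower (1 and 1 without control siRNA replicate 1).

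Of 16 tested other mesenchymal markers, 4 rose and 2 fell (9 and 2 without control siRNA replicate 1). The shares over all genes were 4.89% higher and 7.29% lower (16.2% and 16.9% without control siRNA replicate 1). GREM1, an antagonist of bone morphogenetic proteins, rose from 94.0 ± 22.1 to 183 ± 25.5 CPM and the collagen gene COL1A1 by a log2 fold change of 0.38 ± 0.097. The gelatinase MMP9 fell from 1.81 ± 0.362 to 0.717 ± 0.20 CPM. Among 4 tested relatives of SPARC, FSTL1 rose from 719 ± 61.8 to 995 ± 14.2 CPM and no other was called (1 rise also without control siRNA replicate 1). Of 16 tested fibronectin receptors and partners, CCN2 (37.9 ± 5.94 to 77.5 ± 5.99 CPM) and SDC4 (log2 fold change 0.33 ± 0.076) rose and none fell (2 and 3 without control siRNA replicate 1). KRT17 was the 1 call among 10 tested intermediate filament genes and partners, from 71.8 ± 16.3 to 125 ± 16.6 CPM (3 rises without control siRNA replicate 1).

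Calls among regulators and epithelial genes in the knockdown stand against 12.2% of all genes called, or 33.1% without control siRNA replicate 1. TCF3, an E protein, fell from 174 ± 7.94 to 141 ± 4.03 CPM and was the 1 call among 15 other EMT transcription factors (0 rises and 2 falls without control siRNA replicate 1). None of 6 tested epithelial-state factors and none of 16 tested epithelial targets was called by edgeR, whereas without control siRNA replicate 1 the calls were 0 higher and 1 lower, and 2 higher and 1 lower. ELF3 stood at 32.9 ± 2.31 CPM with control and at 26.3 ± 1.61 CPM with SNRPA1 siRNA (log2 fold change -0.32 ± 0.098, edgeR adjusted p = 0.073). Among 16 corepressors and chromatin partners 2 rose and none fell (6 and 3 without control siRNA replicate 1), with a log2 fold change of 0.45 ± 0.10 for CTBP2. PSMD14 (0.27 ± 0.067) was the 1 call among 20 stability enzymes (2 rises and 4 falls without control siRNA replicate 1). The knockdown calls of CNN1, CCN2 and FSTL1 held in 8 of 13 other settings. Those of FLNA and GREM1 held in 7, and those of KRT17, MRTFA, SDC4 and TCF3 in 6. The calls of CNN3, CTBP2 and PSMD14 held in 4 of 13, that of COL1A1 in 3 of 13 and that of MMP9 in 4 of 11.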

How the data were processed

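Polyadenylated RNA of 12 libraries was sequenced, after Trizol extraction and oligo(dT) selection per the labels' protocols. Tools listed without roles in the submitters' processing notes are HISAT2 2.0.4, StringTie 1.3.4d, cutadapt 1.9 and DESeq2, with build hg38, whereas the name of the kava table mentions salmon, which was not resolved. The authors deposited TPM for the vehicle and kava libraries (78932 genes, each column summing to 1000000, so depth is unknown). For the siRNA libraries they deposited raw read counts and FPKM (35697 genes, 55003534 to 65385258 counts per library), and 1 FPKM column without its prefix was matched by name. Strand use in counting is not given in the sources used here.

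For kava against vehicle, limma 3.58.1 (R 4.3.3, mean-variance trend) was run on log2(TPM + 1), which understates changes of low genes, for genes averaging 1 TPM or more. For the knockdown, edgeR 4.0.16 (quasi-likelihood, TMM scaling) was run on the deposited counts, for genes averaging 1 CPM or more; CPM values were computed from the counts, and SE is the fold change over the square root of F. Tests were two-sided with Benjamini-Hochberg adjustment over all genes tested, called at 0.05. They were also run on simulated data with the same spread for all genes and no library that stood apart. That run cannot show how the knockdown calls depend on single libraries. DESeq2 1.42.0, other scalings, filters and pseudocounts, a replicate block and leaving out each library were alternatives. Members and lists were chosen with earlier results of these data known. Named are all members, SNRPA1, of each other list at most 4 called genes by size of change (or the 2 most abundant if none was called), and the 3 genes nearest to the member with the largest called change; others are marked in the text or are cell type markers. Gene positions are those of the deposited tables, and UTRs those of GENCODE 29. Some genes that this rule names are not reported here.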

Additional observations from a re-analysis of the deposited data

How the results depend on the processing

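With kava, the counts of called genes (3155 to 4447, with 4429 as reported) and of called members (5 to 8, with 6 as reported) stayed within 1.5 times under every alternative run, and directions held for every member, for SNRPA1 and for the list genes named by the rule; genes named after their values were seen and overlapping genes were not rerun. The knockdown counts did not: 1677 genes and 2 members became 3195 genes with DESeq2, 669 genes and 1 member with no filter on low genes, and 0 and 0 with the replicate block (2919 genes and 4 members at an unadjusted edgeR p under 0.05). Leaving out 1 library at a time gave 0 to 4546 genes and 0 to 4 members (4546 without control siRNA replicate 1, 1060 without replicate 2 and 15 without replicate 3 of that group; 0 without any 1 SNRPA1 siRNA library, with 2889 to 3267 genes at an unadjusted edgeR p under 0.05). With no filter more genes were tested (30764 against 13772); otherwise the cause was not tested. The share of higher among called knockdown genes was 40.1% with TMM, 21.8% with library size only and 24.0% with limma on FPKM, and library size only moved the median of all genes to -0.06. Directions reversed for some uncalled genes, all with 1 library left out: over these fits ZEB1 ranged from -0.13 to 0.32, ZEB2 from -0.047 to 0.34, VIM from -0.043 to 0.0098 and TJP1 from -0.11 to 0.20, each turning without control siRNA replicate 1. SNAI2 ranged from -0.21 to 0.078, turning without control siRNA replicate 2 and, at 0.040, without SNRPA1 siRNA replicate 3. Same-numbered libraries did not deviate together (correlations of deviations -0.016, -0.11 and 0.093 for kava and -0.38, 0.0014 and -0.19 for the knockdown), so the numbers were not taken as pairs. The block gave 3954 genes and 6 members with kava. SNAI1 fell below the filter at a mean of 5 and has no value there. Depth is unknown for TPM, and in the siRNA libraries SNAI1, at 87 to 221 reads, was the member most limited by counting.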
